A study of Tachysurus fulvidraco x Tachysurus vachelli with 6 samples.

Results

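The genes described here encode the ion pumps and acid-base transporters of the catfish gill, the molecular equipment of ionocytes. Members were chosen by their annotated product, under a rule set with earlier results of these data known. They are the genes annotated as Na+/K+-ATPase subunits, V-type proton ATPase subunits, carbonic anhydrases, sodium/hydrogen exchangers, the cystic fibrosis channel, solute carriers of family 12, anion exchangers and bicarbonate transporters. The gene atp1b1 was also included by name, and its product meets the rule. In all, 105 of the 25792 genes in the deposited table were members. The label of the set names ionocytes, but the libraries hold all cells of the gill, and many members are also used by other cells. The fish were juvenile hybrids of Tachysurus fulvidraco females with P. vachellii males. RNA came from the second gill on the left. One group had been transported for 16 h and the other was untreated, with 3 libraries each. The labels do not say whether a library holds 1 fish or a pool, so the p-values reflect only how these libraries vary, which may be partly technical.

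Ionocytes are the mitochondria-rich cells of the gill that move salt and acid between blood and water. Their Na+/K+-ATPase, an alpha catalytic subunit paired with a beta subunit, pumps sodium out and potassium in across the basolateral membrane and so powers the other transporters. Freshwater fish take up sodium through apical sodium/hydrogen exchangers or with the help of the apical V-type proton pump. Carbonic anhydrase turns carbon dioxide into the protons and bicarbonate that these exchangers trade for sodium and chloride.

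The libraries held between 42962760 and 58495713 estimated counts, and 20771 genes had enough counts for a test with edgeR (quasi-likelihood F test, Benjamini-Hochberg adjustment over all tested genes, called at an adjusted p under 0.05). Levels are the deposited FPKM, fragment numbers scaled by transcript length and library size, which allow comparison between genes. Log2 fold changes are transport minus control, with a standard error (SE). Skeletal muscle transcripts entered the libraries in unequal amounts that did not follow the groups. The summed FPKM of 27 muscle marker genes was 244.9, 1097.3 and 1883.1 in transport replicates 1, 2 and 3, against 1952.4, 364.0 and 356.4 in control replicates 1, 2 and 3.

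Of the 105 members, 85 were tested. The other 20 averaged at most 0.133 FPKM over the 6 libraries, and 1 of them, LOC113660699, was listed at 0 in every library. After transport 3 members rose and 2 fell, 5.88% of those tested, where 6.69% of all genes were called (3.23% higher and 3.46% lower). The share of members called was thus near that of all genes. Transport and control FPKM were fully apart in 21 of the 85 members, or 24.7%, against 32.7% of all tested genes. An unadjusted edgeR p under 0.05 was found for 15 of the 85, against 25.0% of all tested genes. The median log2 fold change was 0.06 over the members and 0.002 over all genes tested. The plot of fold changes shows where the 5 called genes lie among the others. Each was called by edgeR with all 6 libraries, and without transport replicate 2 or without transport replicate 3 no member was. Those fits called few genes of any kind, 3 of 21323 tested without transport replicate 2 and 162 of 21368 without transport replicate 3. Calls lost in these fits are thus not particular to the members. All 5 called members kept their sign and an unadjusted edgeR p under 0.05 whichever library was left out. Their FPKM groups were apart and they were picked by p in these same libraries. Their signs could thus hardly turn, and this is no independent support.

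**Figure D1:**
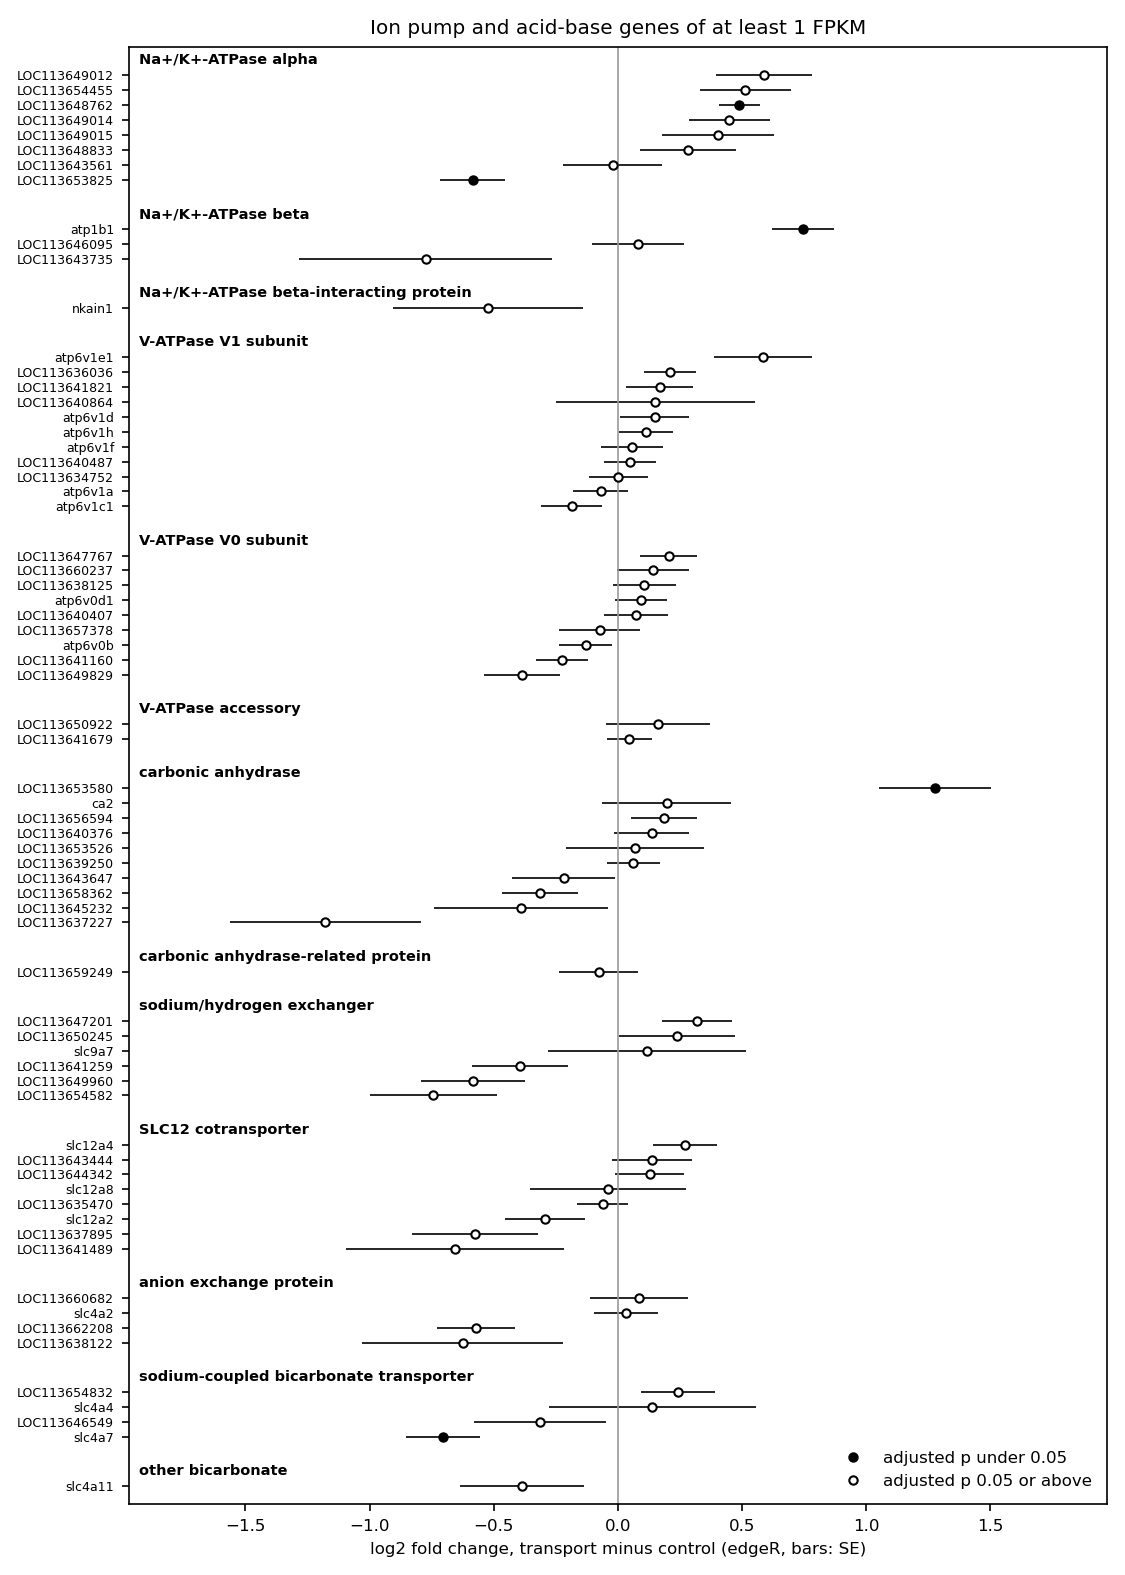
Log2 fold change (x axis, transport minus control, edgeR, bars show the SE) of the members of at least 1 FPKM, grouped by class, with 1 of these members not shown. Filled points are the 5 called genes: LOC113653580, atp1b1 and LOC113648762 on the side of transport, LOC113653825 and slc4a7 on the side of control.

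Among the genes of the Na+/K+-ATPase, that of the beta-1 subunit rose. Beta subunits bring the alpha subunit to the membrane and stabilise it. The gene atp1b1 (NW_020848416.1, 14577001 to 14584685, plus strand) stood at 553, 663 and 738 FPKM in the transport libraries, against 379, 359 and 414 FPKM in the controls. Every transport library lay above every control. The means were 651 ± 93.1 and 384 ± 27.9 FPKM (SD, n = 3 each), and edgeR gave a log2 fold change of 0.75 with an SE of 0.13 (adjusted p = 0.0244). The call held without control replicate 1 (edgeR adjusted p = 0.0425) and without transport replicate 1 (0.0342). It was lost without control replicate 2 (0.0529), control replicate 3 (0.0573), transport replicate 2 (0.135) and transport replicate 3 (0.0881). In whole gill, more cells of a type and more RNA per cell cannot be told apart. The other beta genes were far less abundant and not called. LOC113646095, a beta-2-like gene and the second most abundant, averaged 16.1 ± 1.07 FPKM after transport and 15.1 ± 3.63 FPKM in the controls, and LOC113643735, beta-3-like, 0.947 and 1.61 FPKM.

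The alpha subunit was encoded by 9 annotated genes, all of which were tested. An unadjusted edgeR p under 0.05 was found for 5 of the 9, against 25.0% of all tested genes. The groups were apart in 55.6% of the 9, against 32.7% of all tested genes, with 4 genes higher and 1 lower. The median log2 fold change was 0.45, with 7 positive and 2 negative. Whether these genes give independent values was not tested. LOC113649014, annotated as alpha-1-like, was the main transcript of the class. It had 478, 612 and 743 FPKM after transport, against 449, 405 and 473 FPKM in the controls, ranking 168 among the 20771 tested genes. The groups did not overlap, though the lowest transport library lay just above the highest control. Its log2 fold change was 0.45 (SE 0.16) and it was not called (edgeR adjusted p = 0.148). It made up 61.6% ± 1.48 of the summed alpha FPKM after transport and 60.6% ± 3.83 in the controls. LOC113649015, the next, averaged 250 ± 51.7 FPKM after transport and 187 ± 48.6 FPKM in the controls, with overlapping groups (log2 fold change 0.40, SE 0.23). Together these 2 genes gave 86.8% and 85.8% of the summed alpha FPKM in transport and control libraries.

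**Figure D2:**
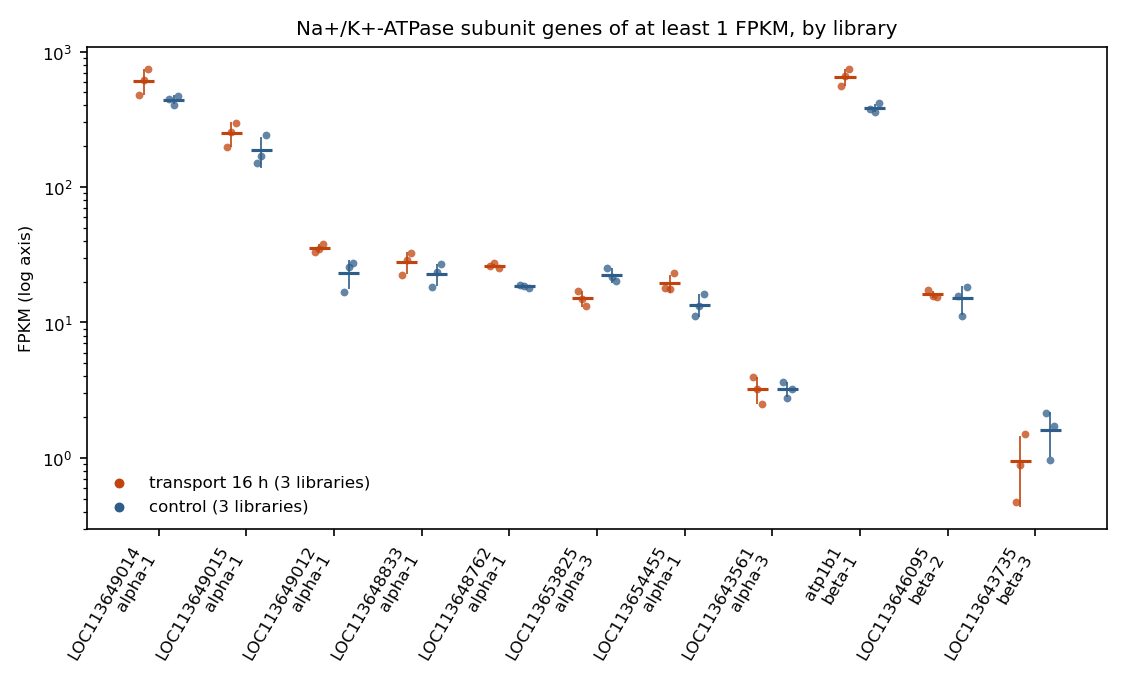
FPKM (log axis) of the 11 alpha and beta subunit genes of at least 1 FPKM in each library; points are libraries, horizontal bars means, vertical bars 1 SD. The 3 transport values of atp1b1 lie above all its controls, whereas those of the alpha-3-like gene LOC113653825 lie below.

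LOC113648762, another alpha-1-like gene, was the only alpha gene that edgeR called higher. It had 25.9, 27.3 and 25.3 FPKM in the transport libraries, against 18.8, 18.6 and 17.96 FPKM in the controls. Values within each group lay close together and the groups were apart. Its log2 fold change came to 0.49 with an SE of 0.083 (edgeR adjusted p = 0.0242). It remained called without control replicate 1 (edgeR adjusted p = 0.0364) or control replicate 2 (0.0454). It did not without control replicate 3 (0.0744), transport replicate 1 (0.0648), transport replicate 2 (0.146) or transport replicate 3 (0.0902). Its fold change was about that of the uncalled LOC113649014, whose transport libraries varied more.

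LOC113648762, LOC113649014, LOC113649015, LOC113649012 and LOC113648833 lie side by side on the minus strand of NW_020847857.1, between 3823663 and 3900783, with no other annotated gene between them and gaps of 2017 to 11723 bases. Coordinates are those of the deposited table, for a build that it does not name. All 5 had positive log2 fold changes, 0.49, 0.45, 0.40, 0.59 and 0.28 in that order along the scaffold, and 1 was called. Their levels differed widely within the array. LOC113649012 averaged 35.4 ± 2.49 FPKM after transport and 23.2 ± 5.70 FPKM in the controls, and LOC113648833 28.1 ± 5.16 and 22.9 ± 4.33 FPKM. DESeq2 called LOC113649012 higher, whereas edgeR did not call it (edgeR adjusted p = 0.116). How the authors assigned reads that match several genes is not stated, and the sequence identity of the copies was not computed, so whether the 5 values are independent was not tested. A sixth alpha-1 gene, LOC113654455, lies on another scaffold, NW_020847958.1, and stood at 18.04, 17.7 and 23.0 FPKM after transport, against 11.1, 13.2 and 16.3 FPKM in the controls. Its groups were apart too, but it was not called (log2 fold change 0.51, SE 0.18, edgeR adjusted p = 0.140). The last alpha gene, LOC113662123, was near the limit of detection, with 0.16, 0.59 and 1.10 FPKM after transport and 0.89, 0.11 and 0.20 FPKM in the controls, highest in the libraries with the most muscle transcripts.

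**Figure D3:**
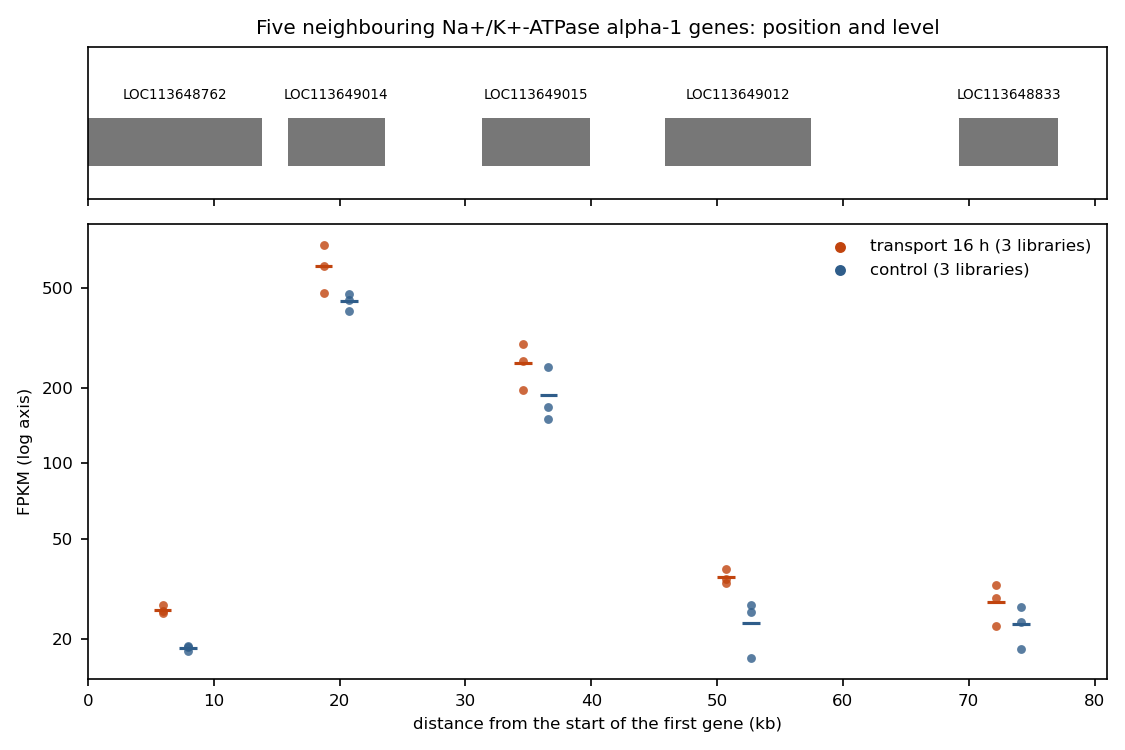
The upper panel shows the 5 neighbouring alpha-1 genes as bars along the scaffold (distance in kb from the start of the first gene), the lower their FPKM (log axis) in each library, with short lines for the group means. LOC113649014 and LOC113649015 stand at group means of 187 to 611 FPKM, the other 3 genes at 18.4 to 35.4 FPKM.

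The alpha-3-like gene LOC113653825 moved the other way. In mammals alpha-3 is the isoform of neurons. The gene fell to 17.1, 14.95 and 13.1 FPKM in the transport libraries, against 25.4, 21.5 and 20.1 FPKM in the controls, with no overlap. edgeR gave a log2 fold change of -0.59 with an SE of 0.13 (adjusted p = 0.0479), and the call was lost whichever library was left out (edgeR adjusted p 0.0654 to 0.192). The summed FPKM of 10 markers of neurons and glia was 10.41, 10.49 and 11.07 after transport and 11.2, 16.9 and 17.4 in the controls, also without overlap, but the markers did not move as one. Of the 8 tested, 4 had positive and 4 negative log2 fold changes. The sum was lower through the myelin genes, mpz, which was called at 3.81 FPKM after transport and 7.87 FPKM in the controls (edgeR adjusted p = 0.0317), and mbp, at 2.25 and 3.57 FPKM. The neuronal gene gap43 had 0.51, 0.83 and 1.21 FPKM after transport and 0.27, 0.19 and 0.14 FPKM in the controls, apart in the other direction (edgeR adjusted p = 0.0791). Of the other neuronal genes, snap25 averaged 1.74 and 1.71 FPKM and sncb 1.29 and 0.930 FPKM, and elavl3 and the glial gene gfap were each listed at 0 in all but 1 library. Their part in the alpha-3 result was not tested. The second alpha-3 gene, LOC113643561, averaged 3.22 FPKM in both groups.

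Summed over the 9 alpha genes, FPKM was 795.1, 994.4 and 1177.7 after transport and 693.7, 678.5 and 826.8 in the controls, with transport replicate 1 inside the range of the controls. The beta sum was 570.8, 680.0 and 755.1 after transport and 396.7, 371.4 and 434.8 in the controls, without overlap. The ratio of atp1b1 to summed alpha FPKM was 0.663 ± 0.0345 after transport and 0.525 ± 0.0227 in the controls, and every transport library was above every control. Transport replicate 1 was the lowest and transport replicate 3 the highest transport library for atp1b1, LOC113649014 and LOC113649015, the same order as that of the muscle markers. Control replicate 1, with the highest muscle sum of all, had 379 FPKM of atp1b1 and 449 FPKM of LOC113649014, in both cases between the other controls. For LOC113649015 it was the lowest control, at 150 FPKM. This order among transport libraries was found in 18 of the 69 members of at least 1 FPKM, or 26.1%, and in 25.4% of all tested genes of that level. The summed FPKM of 16 hemoglobin genes had the reverse order in transport replicates 1, 2 and 3, at 11777.6, 8510.0 and 5064.8. Control replicate 2, the highest in hemoglobin, was the lowest control for atp1b1 and LOC113649014 but not for LOC113649015. The part of muscle or blood content in the levels of these genes was not tested. The beta-1-interacting protein gene nkain1, whose product binds the beta subunit in mammals, averaged 0.853 and 1.23 FPKM (edgeR adjusted p = 0.454), and nkain2 reached 0.08 FPKM in 1 control and was listed at 0 elsewhere.

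No gene of the V-type proton pump was called. The pump consists of a cytosolic V1 sector, which splits ATP, and a membrane V0 sector, which carries the protons. Of its 28 annotated genes 24 were tested. Here edgeR, DESeq2 and limma called 0 of them, where edgeR called 6.69% of all tested genes. An unadjusted edgeR p under 0.05 was found for 2, where 25.0% of all tested genes had one. In 17 of the 24 the log2 fold change was above 0, against 50.2% of all tested genes, and the median of the 24 was 0.08. The catalytic subunit gene atp6v1a averaged 39.6 ± 3.32 FPKM after transport and 41.0 ± 3.86 FPKM in the controls (log2 fold change -0.07, SE 0.11). The most abundant V1 transcripts were LOC113641821, a subunit G gene, at 72.3 ± 3.32 and 63.5 ± 9.62 FPKM, and atp6v1f, subunit F, at 64.4 ± 6.14 and 61.1 ± 6.14 FPKM in transport and control libraries. Sector sums were close as well, at 366 ± 6.06 FPKM after transport and 338 ± 28.6 FPKM in the controls for V1, and 410 ± 10.4 and 395 ± 39.9 FPKM for V0.

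The 2 proton pump genes nearest to a call lay in different sectors and had log2 fold changes of opposite sign. The subunit E gene atp6v1e1, part of the stalk that holds V1 to V0, had 13.1, 10.2 and 9.50 FPKM after transport and 6.08, 7.30 and 8.15 FPKM in the controls, apart but not called (log2 fold change 0.59, SE 0.20, edgeR adjusted p = 0.125). LOC113636036, the more abundant subunit E gene, averaged 56.2 ± 3.38 and 47.9 ± 3.21 FPKM in transport and control libraries. LOC113649829, one of 2 genes for the 16 kDa proteolipid of the V0 ring, had 25.1, 25.0 and 28.5 FPKM after transport and 28.4, 33.7 and 39.4 FPKM in the controls, overlapping slightly (log2 fold change -0.39, SE 0.15, edgeR adjusted p = 0.174). The main proteolipid gene, LOC113638125, was the most abundant V-ATPase transcript, at 195 ± 1.52 and 179 ± 26.7 FPKM, and atp6v0b, the 21 kDa proteolipid gene, averaged 41.5 and 44.8 FPKM. Of the accessory subunit S1 genes, LOC113641679 held almost all of the signal, at 21.2 ± 0.864 FPKM after transport and 20.2 ± 0.250 FPKM in the controls, and LOC113650922 averaged 1.49 and 1.31 FPKM.

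Of the carbonic anhydrase genes 16 were annotated and 14 tested, and 1 rose. That is 7.14% of those tested, near the 6.69% of all genes. The groups were apart in 14.3% of the 14, against 32.7% of all tested genes. LOC113653580 is annotated as similar to carbonic anhydrase 4, the form that in mammals is anchored to the outer face of the cell membrane (NW_020847941.1, 1310588 to 1315547, minus strand). It had 133.26, 116.04 and 105.28 FPKM in the transport libraries, against 40.7, 38.0 and 65.6 FPKM in the controls. The lowest transport library was well above the highest control. Its log2 fold change of 1.28, with an SE of 0.23 (edgeR adjusted p = 0.0270), was the largest among called members. The call held without control replicate 1 (edgeR adjusted p = 0.0477) or control replicate 3 (0.0147). It was lost without control replicate 2 (0.0537), transport replicate 1 (0.0691), transport replicate 2 (0.128) or transport replicate 3 (0.0868). The share of LOC113653580 in the summed carbonic anhydrase FPKM was 11.8% ± 0.513 after transport and 5.60% ± 1.44 in the controls.

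**Figure D4:**
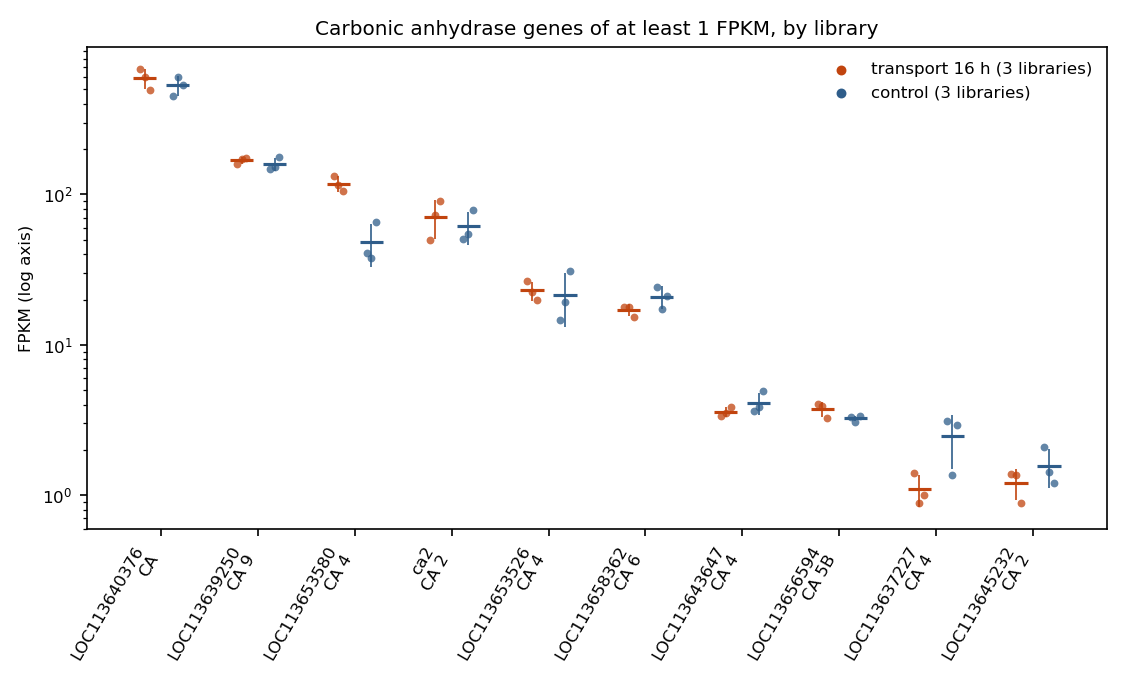
FPKM (log axis) of the 10 carbonic anhydrase (CA) genes of at least 1 FPKM in each library; points are libraries, horizontal bars means, vertical bars 1 SD, with the CA number each is annotated with. The groups are apart only for LOC113653580, at 105 to 133 FPKM after transport and 38.0 to 65.6 FPKM in the controls. Over all tested genes 32.7% were apart.

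The neighbour of LOC113653580 on the same strand, LOC113653526, is also annotated as carbonic anhydrase 4-like and lies 12710 bases away with no annotated gene between. Its groups overlapped, with 26.5, 22.5 and 20.0 FPKM after transport and 14.6, 19.2 and 30.9 FPKM in the controls (log2 fold change 0.07, SE 0.28). The next copy, LOC113653525, reached at most 0.21 FPKM and was not tested. Carbonic anhydrase 4-like genes elsewhere in the genome had lower levels. LOC113637227 averaged 1.10 ± 0.267 FPKM after transport and 2.47 ± 0.964 FPKM in the controls (log2 fold change -1.18, SE 0.39, edgeR adjusted p = 0.115). LOC113636425 was listed at 0, 0 and 0.11 FPKM after transport and 0.50, 0.51 and 2.57 FPKM in the controls (edgeR adjusted p = 0.106). DESeq2 called both of these low genes lower, and edgeR neither.

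The bulk of carbonic anhydrase transcript came from LOC113640376, annotated as carbonic anhydrase without a number. It had 679, 600 and 495 FPKM after transport and 450, 607 and 534 FPKM in the controls, overlapping groups, and ranked 156 among all tested genes. It gave 58.8% ± 4.44 and 61.9% ± 4.97 of the class sum. The gene ca2, for the cytosolic form that in fish gill serves ionocytes, averaged 71.2 ± 20.6 FPKM after transport and 61.4 ± 15.1 FPKM in the controls. LOC113639250, similar to the transmembrane carbonic anhydrase 9, averaged 169 ± 8.99 and 160 ± 15.9 FPKM. LOC113658362, similar to carbonic anhydrase 6, the secreted form of mammalian saliva, averaged 17.1 ± 1.54 and 20.9 ± 3.53 FPKM. For LOC113640376, LOC113639250 and ca2, SEs of 0.15, 0.11 and 0.26 on the log2 scale bound what could be detected. The carbonic anhydrase-related protein 10 gene LOC113659249, whose protein lacks the catalytic activity, averaged 4.92 and 5.13 FPKM, and ca10 reached 0.04 FPKM in 1 transport library only.

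None of the 9 sodium/hydrogen exchanger genes was called by edgeR, DESeq2 or limma, where edgeR called 6.69% of all tested genes. An unadjusted edgeR p under 0.05 was found for 2 of the 9, near the 25.0% of all tested genes. The main one, LOC113641259, is annotated as exchanger 3-like, the apical exchanger of acid-secreting ionocytes in fish. It had 38.8, 47.5 and 57.1 FPKM after transport and 62.4, 49.9 and 73.9 FPKM in the controls (log2 fold change -0.39, SE 0.19, edgeR adjusted p = 0.261). The groups overlapped in 1 transport library, which lay above the lowest control. The exchanger 2-like gene LOC113654582, another plasma membrane form, had 5.43, 3.64 and 2.77 FPKM after transport and 6.72, 5.84 and 7.0 FPKM in the controls, apart but not called (log2 fold change -0.74, SE 0.26, edgeR adjusted p = 0.130). LOC113650245, exchanger 6-like, was the most abundant exchanger gene after LOC113641259. It had 10.8, 15.2 and 20.2 FPKM after transport and 11.6, 12.7 and 14.3 FPKM in the controls, overlapping groups (log2 fold change 0.24, SE 0.23, edgeR adjusted p = 0.585). LOC113649960, similar to exchanger 9B2, averaged 1.94 ± 0.266 and 2.87 ± 0.412 FPKM. The housekeeping exchanger 1-like gene LOC113647201 averaged 2.41 ± 0.222 FPKM after transport and 1.91 ± 0.0954 FPKM in the controls (edgeR adjusted p = 0.220).

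Among transporters that carry bicarbonate together with sodium, slc4a7 fell. It encodes the electroneutral cotransporter NBCn1, which in mammals brings sodium and bicarbonate into cells. The gene (NW_020847759.1, 403804 to 433315, plus strand) had 7.84, 5.83 and 6.19 FPKM after transport, against 11.8, 10.4 and 9.76 FPKM in the controls. All 3 transport values were below the lowest control. edgeR gave a log2 fold change of -0.70 with an SE of 0.15 (adjusted p = 0.0407), with an adjusted p of 0.0514 to 0.176 when any 1 library was left out, so no such call remained. The more abundant LOC113646549 resembles the electrogenic cotransporter NBCe1, which in ionocytes passes bicarbonate to the blood. It had 18.5, 30.0 and 39.6 FPKM after transport and 32.2, 34.6 and 41.5 FPKM in the controls, a wide spread among transport libraries (log2 fold change -0.31, SE 0.27). The gene slc4a4 averaged 3.24 and 2.91 FPKM, and LOC113654832, a second NBCn1-like gene, 3.29 ± 0.305 and 2.75 ± 0.341 FPKM. The log2 fold changes of LOC113654832 and slc4a7 were 0.24 and -0.70, and the difference between the genes was not tested. The gene slc4a11, whose mammalian product is a membrane transporter of acid equivalents, averaged 5.55 ± 0.291 and 7.18 ± 2.62 FPKM.

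Anion exchange proteins swap chloride for bicarbonate, and in mammals band 3 is their form in red blood cells. LOC113662208, band 3-like, had 61.2, 68.3 and 73.5 FPKM after transport, against 99.6, 80.2 and 118 FPKM in the controls. The groups were apart, but edgeR did not call the gene (log2 fold change -0.57, SE 0.16, edgeR adjusted p = 0.0769), whereas DESeq2 did (adjusted p = 0.00736), as did edgeR without control replicate 2 (0.0449). Over 16 hemoglobin genes the summed FPKM was 11777.6, 8510.0 and 5064.8 after transport, against 7148.5, 14026.7 and 8820.3 in the controls, overlapping groups in another order of libraries. The other band 3-like gene, LOC113638122, had 20.1, 16.2 and 9.76 FPKM after transport and 15.4, 38.0 and 16.6 FPKM in the controls. Its highest control and lowest transport library were those of the hemoglobin genes. It was not called (log2 fold change -0.63, SE 0.41). Of the 22 genes of the erythrocyte list, which holds both band 3 genes and the hemoglobin genes, 18 were tested. They had 3 positive and 15 negative log2 fold changes and a median of -0.25, where 50.2% of all tested genes were above 0. Most of the list is the 16 hemoglobin genes, and whether these give independent values was not tested. The gene hemgn of that list averaged 40.6 FPKM after transport and 30.9 FPKM in the controls (edgeR adjusted p = 0.481). The Rh glycoprotein gene rhag of that list averaged 80.2 FPKM after transport and 99.8 FPKM in the controls, with the groups apart (edgeR adjusted p = 0.0769). The mitochondrial iron carrier gene slc25a37 rose, at 9.08 FPKM after transport and 4.47 FPKM in the controls (edgeR adjusted p = 0.0498). Which cells of the gill carry either band 3-like transcript was not tested, nor was the part of blood content in either result. The anion exchanger 2 genes LOC113660682 and slc4a2, found in many tissues, averaged 8.03 and 3.69 FPKM after transport and 7.45 and 3.56 FPKM in the controls. Summed over the 5 genes of the class, FPKM was 94.8 ± 1.28 after transport and 133.7 ± 10.53 in the controls, without overlap, and LOC113662208 carried most of it.

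The cation-chloride cotransporters of family 12 showed no call by edgeR, DESeq2 or limma among their 10 tested genes, of 15 annotated. As edgeR called 6.69% of all tested genes, no call among 10 genes says little. None had an unadjusted edgeR p under 0.05, against 25.0% of all tested genes. Those that carry potassium and chloride out of cells were the most abundant: LOC113643444, member 7-like, at 12.2 ± 0.906 and 10.9 ± 2.20 FPKM, and LOC113635470, member 6-like, at 10.6 ± 0.765 and 10.96 ± 0.664 FPKM in transport and control libraries. The gene slc12a2, for the sodium-potassium-chloride cotransporter of secreting cells, averaged 4.11 ± 0.692 and 4.98 ± 0.555 FPKM. The genes for its apical relatives, slc12a1 and slc12a3, reached at most 0.06 FPKM. LOC113641489, member 9-like, had 9.35, 9.22 and 2.51 FPKM after transport and 10.7, 11.4 and 10.6 FPKM in the controls, so all transport values were below the controls and 1 of them by far (edgeR adjusted p = 0.409). The gene of the family with the smallest p was LOC113637895, also member 9-like, at 1.42 ± 0.350 and 2.09 ± 0.448 FPKM (edgeR adjusted p = 0.214). The chloride channel gene cftr, which in marine fish serves salt secretion, was barely detected, at 0.64, 0.42 and 0.23 FPKM after transport and 0.08, 0.48 and 0.34 FPKM in the controls. LOC113645745, similar to the chloride/bicarbonate exchanger of family 26, was seen in 1 control only, at 0.13 FPKM. LOC113645686, a pendrin-like gene of family 26, is not a member but was far more abundant. It averaged 68.0 ± 33.9 FPKM after transport and 93.7 ± 21.7 FPKM in the controls, with overlapping groups. It was not called (log2 fold change -0.48, SE 0.38, edgeR adjusted p = 0.494).

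**Figure D5:**
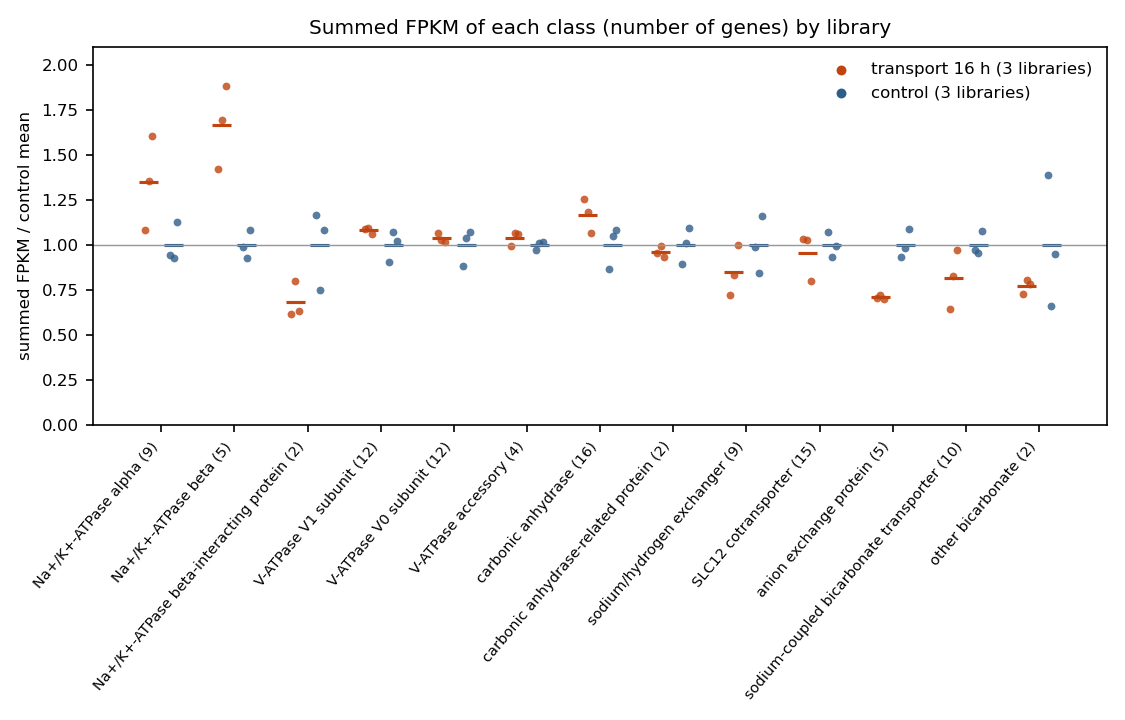
Summed FPKM of each class of members in each library, divided by the mean of the controls (y axis); points are libraries, bars group means, numbers in brackets genes per class. The beta sum of the Na+/K+-ATPase lies above all controls and the anion exchange sum below, while the V-ATPase sums lie at 1.04 to 1.08 times the controls on average.

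None of the ionocyte markers outside the set of members was called. The transcription factor gene foxi1 averaged 15.3 FPKM after transport and 16.8 FPKM in the controls. Its relative foxi3, also a listed marker, had 0.07 FPKM in control replicate 3, was listed at 0 elsewhere and was not tested. The more abundant forkhead box I1-like gene LOC113644486, chosen after its values were seen, averaged 60.5 and 54.7 FPKM (edgeR adjusted p = 0.683). The transcription factor gene gcm2 averaged 111 and 90.7 FPKM, with the groups apart (edgeR adjusted p = 0.0863). The ammonia channel gene rhcg averaged 146 FPKM after transport and 147 FPKM in the controls. LOC113652421, annotated as ammonium transporter Rh type C 2-like, is not a listed marker but was more abundant. It had 986, 905 and 833 FPKM after transport and 371, 678 and 701 FPKM in the controls, apart but not called (log2 fold change 0.62, SE 0.24, edgeR adjusted p = 0.163). Some markers of other gill cells differed between the groups. The goblet cell gene agr2 averaged 82.1 FPKM after transport and 291 FPKM in the controls (edgeR adjusted p = 0.0182). Of the 4 epithelial markers, 2 went up and 2 down, and their summed FPKM overlapped. The basal epithelial gene tp63 averaged 42.9 and 71.3 FPKM (edgeR adjusted p = 0.0207) and the surface epithelial gene evpl 104 and 39.8 FPKM (0.0480). The most abundant, krt18, averaged 907 and 1249 FPKM (0.155), and ppl 100 and 75.6 FPKM (0.142), and neither was called. The 3 endothelial markers summed to 6.92 ± 0.252 FPKM after transport and 10.03 ± 2.06 FPKM in the controls. Of these, flt4 was called, at 0.86 and 2.35 FPKM (edgeR adjusted p = 0.0477). Not called were kdr, at 3.39 and 4.55 FPKM (0.115), and tek, at 2.67 and 3.12 FPKM (0.604). What such shifts in other cells contribute to the levels of members was not tested.

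A list of 76 further ion transport genes of the gill, chosen by product, held 63 tested genes, of which 4 rose and 4 fell. That is 12.7%, where 6.69% of all genes were called. The list was drawn up with earlier results of these data known, so this comparison is no test of the list. Of the 10 genes for inward rectifier potassium channel 1, the channel that recycles potassium in salt-transporting cells, 2 rose. LOC113652713 had 20.3, 19.5 and 16.4 FPKM after transport and 5.26, 7.57 and 8.82 FPKM in the controls (log2 fold change 1.35, SE 0.22, edgeR adjusted p = 0.0227). LOC113652650 had 20.0, 21.8 and 21.9 FPKM after transport and 7.84, 10.54 and 11.9 FPKM in the controls (log2 fold change 1.05, SE 0.17, edgeR adjusted p = 0.0235). Both belong to a run of 6 such genes on NW_020847924.1 with no other annotated gene between them, and in all 6 the transport values lay above the controls. The groups were thus apart in 66.7% of the 9 tested genes of this channel, against 32.7% of all tested genes. On other scaffolds, LOC113660916, LOC113633962 and kcnj1 had overlapping groups (log2 fold changes 0.19, -0.08 and -0.20). The other 4 of the run were not called. As for the alpha-1 array, how reads were divided between the copies is not stated. Both calls held without any 1 control (edgeR adjusted p of 0.0187 to 0.0485) and were lost without transport replicate 1 (0.0648 and 0.0573), transport replicate 2 (0.124 and 0.126) or transport replicate 3 (0.0743 and 0.0953) for LOC113652713 and LOC113652650.

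The other 6 called genes of that list were regulators and carriers, of which 2 rose and 4 fell. The kinase gene wnk4, a regulator of chloride cotransporters, averaged 1.58 ± 0.377 FPKM after transport and 0.560 ± 0.104 FPKM in the controls (log2 fold change 1.48, edgeR adjusted p = 0.0268). The more abundant WNK4-like gene LOC113647890 was not called. It averaged 4.31 ± 0.726 and 3.68 ± 0.704 FPKM, with overlapping groups (log2 fold change 0.21, edgeR adjusted p = 0.558). LOC113651560, similar to prestin of the anion transporter family 26, averaged 27.7 ± 1.38 FPKM after transport and 15.1 ± 2.06 FPKM in the controls (edgeR adjusted p = 0.0184). Of the 5 tested genes of this family on the list, 3 had positive and 2 negative log2 fold changes. The most abundant of them, the pendrin-like LOC113645686, was not called (log2 fold change -0.48). Lower were the WNK2-like kinase gene LOC113656247, at 2.64 ± 0.412 and 6.74 ± 2.69 FPKM (edgeR adjusted p = 0.0414), and the sodium/calcium exchanger gene LOC113662065, at 1.21 ± 0.159 and 3.18 ± 0.862 FPKM (0.0249), in transport and control libraries. The mineralocorticoid receptor gene nr3c2 fell as well, at 1.09 ± 0.0961 FPKM after transport and 2.33 ± 0.505 FPKM in the controls (edgeR adjusted p = 0.0378). Another sodium/calcium exchanger gene, LOC113647035, was not called. It averaged 1.83 ± 0.125 FPKM after transport and 1.25 ± 0.391 FPKM in the controls, with all transport values above the controls (log2 fold change 0.53, edgeR adjusted p = 0.246). The ammonium transporter gene rhbg stood at 530, 457 and 399 FPKM after transport, against 614, 812 and 899 FPKM in the controls, the most abundant gene of the list to be called (log2 fold change -0.77, edgeR adjusted p = 0.0448). Each of these 6 called genes lost its edgeR call without transport replicate 1 (adjusted p 0.0551 to 0.0903), transport replicate 2 (0.106 to 0.183), transport replicate 3 (0.0582 to 0.155) or control replicate 3 (0.0511 to 0.116). Without control replicate 2, rhbg, nr3c2 and LOC113656247 lost theirs (edgeR adjusted p 0.0687 to 0.0912), and without control replicate 1 all 6 remained called.

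Spread within groups was modest for most members. Over the 69 members of at least 1 FPKM the median coefficient of variation, the SD as a percentage of the mean, was 9.53% after transport and 13.6% in the controls, and over all genes of that level it was 10.9% and 15.8%. By class it was lowest in the V0 and V1 sectors of the proton pump, at 7.62% and 7.91% after transport and 9.61% and 8.89% in the controls, among classes with more than 2 such genes. It was highest after transport in the sodium-coupled bicarbonate transporters, at 26.04%, against 12.9% in the controls.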

How the data were processed

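Gill RNA sequencing values of 6 libraries, 3 from fish transported for 16 h and 3 untreated, were taken from the deposited table. Each gene has a count and an FPKM value in each library, per the file headers. HISAT and StringTie are named in the submitters' processing notes, while versions, genome build and the assignment of reads that match several genes are not given in the sources used here. Among low values, 4 and 8 occurred far more often than 3 or 5, so the deposited whole numbers are treated as estimated counts in which a fragment is worth about 4 units. Counting error of low genes is therefore larger than the counts alone imply.

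edgeR 4.0.16 (R 4.3.3) tested transport against control on the estimated counts: filterByExpr (minimum count 10, minimum total 15), TMM scaling, a quasi-likelihood F test without covariates and Benjamini-Hochberg adjustment over 20771 genes. The SE was taken from the size of the log2 fold change and the square root of the F statistic. Alternatives were RLE scaling, DESeq2 1.42.0, no filter, limma 3.58.1 on log2(FPKM + 1) and log2(FPKM + 0.1), the replicate number as a block, each library left out and, added after seeing the data, counts divided by 4. The steps were tested on simulated counts.

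Members and lists were chosen with earlier results of these data known. Genes named are called members, the 2 most abundant of each class, the smallest p of each class without a call, atp1b1, cftr and called genes of the further list. The values of 1 member are not reported here. Genes named beyond that rule were chosen after their values were seen. Among them are the other alpha-1 genes, the remaining carbonic anhydrase, exchanger and cotransporter genes, uncalled genes of the further list and the cell markers. Totals per library bound the precision, and no interval from counts is given because the counts are estimates.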

Additional observations from a re-analysis of the deposited data

How the results depend on the processing

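The 5 called members kept their direction under every alternative run, which was hardly open to change because the FPKM groups of each were apart. The same 5 were called with RLE scaling, without a filter on low counts and with counts divided by 4. DESeq2 called 9 members and 3294 genes in all, against 5 members and 1389 genes with edgeR. The further 4 were LOC113649012, LOC113662208, LOC113637227 and LOC113636425. limma on log2(FPKM + 1) called 3 members, losing LOC113653825 and slc4a7. On log2(FPKM + 0.1) it called 5, losing LOC113653825 (limma adjusted p = 0.0609) and adding the carbonic anhydrase gene LOC113636425. Leaving out 1 library at a time gave 0 to 3 called members, and 3 to 1498 called genes, while an unadjusted p under 0.05 was found for 13.6% to 18.6% of members and 16.6% to 26.9% of all genes. The median log2 fold change of the members tested lay between -0.00046 and 0.0862 in those fits, so its sign carries no weight. Classes with a mean summed FPKM of at least 1 were also compared after scaling FPKM to an equal sum. Total FPKM per library lay between 600951.5 and 616601.8, so this scaling could change little and was no test. The log2 difference of the class sums between the groups moved by less than 1 SD. With 3 libraries per group, leaving out 1 library cannot move that difference by 1 SD, so leaving libraries out was no test of the sums. The labels number the libraries of both groups and do not say whether same-numbered libraries were matched. Same-numbered libraries did not deviate together (correlations of -0.0735, -0.0296 and -0.0441), but so few libraries cannot exclude a pairing. With the replicate number as a block, edgeR called 14 genes and 0 members, with an unadjusted p under 0.05 for 18.8% of members and 20.5% of all genes.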
